A study of Danio rerio with 5 samples.

Results

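Genes of the splicing machinery were described on 5 arrays of zebrafish embryos. They were chosen by name. The rule took probe sets whose platform gene symbol begins with snrp, sf3a, sf3b or hnrnp, or with srsf or prpf followed by a digit. No measured value is part of the rule, but it was set with earlier results of these data known. The rule found 63 genes with 80 probe sets, of 8793 genes with 10795 probe sets that carry 1 gene symbol on this array. By family these were 11 snrp genes, 9 sf3 genes, 11 prpf genes, 13 srsf genes and 19 hnrnp genes. All 80 probe sets matched a zebrafish gene identifier in the RefSeq gene table, with the symbol unchanged.

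Total RNA came from wild-type zebrafish embryos at 72 h after fertilization, each of which had received a morpholino, an antisense oligomer, at the 1- to 2-cell stage at 130 µmol/L. The 2 control morphant arrays and the 2 Bdh2 morphant arrays differ in the morpholino. A single array holds Bdh2 morphants expressing ectopic Bdh2, which were also given capped mRNA made from a mouse bdh2 cDNA at 50 µg/ml. All 3 groups were thus injected embryos, and the sources used here do not say how many embryos went into a sample or whether replicates came from separate clutches, so p-values measure only the spread between these samples. Bdh2 is a dehydrogenase linked to a mammalian iron-binding siderophore. The design sets embryos with targeted Bdh2 against controls, and then against embryos given Bdh2 back. No group was given another mRNA, so Bdh2 and the mRNA injection itself cannot be told apart in the array with ectopic Bdh2.

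Splicing removes introns from pre-mRNA. The Sm proteins form a ring around each spliceosomal small nuclear RNA, and the SF3 complex holds the U2 particle on the branch point. Several PRPF proteins, though not all, build the particle of U4, U6 and U5 that is remodelled into the active spliceosome. SR proteins and hnRNPs bind the pre-mRNA, where they often act against each other in the choice of splice sites. Every cell uses the core machinery, while dividing and neural cells are known for high levels of many of these genes.

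Each array was read as probe set intensities, here converted to log2(intensity + 16), and differences are given on that scale. Probe sets were tested where their mean lay above the 40th percentile, an intensity of 97.6, which 9301 probe sets passed, among them 74 member probe sets of 62 genes. The 6 that were not tested were 2 of the 3 for prpf8, 1 each for hnrnpub, prpf3 and sf3b4, and the single probe set for snrpd2, an Sm protein, whose control values were 3.48 and 43.8, Bdh2 morphant values 36.6 and 28.8, and value with ectopic Bdh2 42.6. Because snrpd2 has no other probe set, the Sm ring was measured here without it. In RNA of whole samples, fewer cells of a type and less RNA per cell cannot be told apart.

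Array medians of intensity lay between 142 and 174. The arrays also separated by the replicate number in their labels. In 1 of the 115 Affymetrix control probe sets the replicate 1 arrays gave 129 to 184, the one with ectopic Bdh2 included. Control replicate 2 gave 25644 there and Bdh2 morphant replicate 2 gave 34877. What that probe set reads was not examined, and intensities of the other control probe sets are not given here. The erythroid sum given further on places the array with ectopic Bdh2 nearer replicate 2, while most single erythroid genes place it between the numbers. Where it belongs was thus not settled, and a block on the number was run both ways. The labels do not say what the number stands for, so each difference is also given within number 1 and within number 2. The bdh2 probe set read 344 and 335 in controls, 235 and 643 in Bdh2 morphants and 142 with ectopic Bdh2 (Bdh2 morphants minus controls 0.19, SE 0.50), so it did not separate the groups as labelled. How the morpholino acts, on splicing or on translation, is not in the labels, and the mouse mRNA need not be read by a zebrafish probe set.

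In Bdh2 morphants, the means of all 10 tested snRNP protein probe sets were higher than in controls, with both arrays above both controls for 3 of them, and the means of 20 of 26 hnRNP probe sets were lower, with both arrays below both controls for 6. No member passed the threshold (0 of 74, with 0% of all 9301 probe sets passing; limma, smallest member adjusted p = 0.9995). At an unadjusted p under 0.05 there were 0 members, against 2.09% of all probe sets. The member median was -0.02, beside -0.01 over all tested probe sets, so the families spread around the common level in opposite directions. The median was 0.42 for snrp, 0.05 for prpf, -0.02 for sf3, -0.11 for srsf and -0.12 for hnrnp. Both Bdh2 morphant arrays lay above both controls for 14 of 74 members (18.9%, against 10.3% of all probe sets) and below both for 8 (10.8%, against 14.1%). Within both replicate numbers 23 members were higher (31.1%, against 23.6%) and 22 were lower (29.7%, against 28.2%). Scaling sets part of these signs: with each array centred on its median, the median of all tested probe sets moved to 0.10 and the member median to 0.08, the sf3 median to 0.08, the srsf median to -0.01 and the hnrnp median to -0.01, while the snrp median was 0.53.

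**Figure D1:**
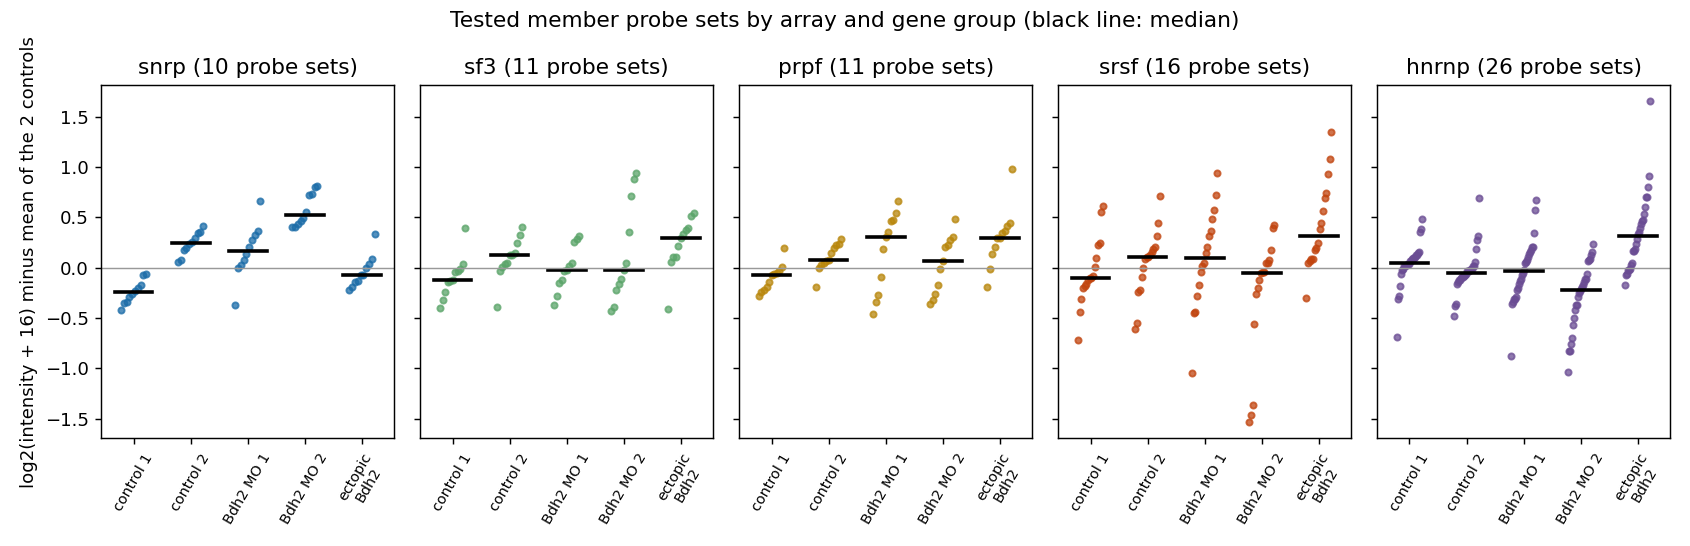
Each point is a tested member probe set in 1 array, as log2(intensity + 16) minus the mean of both control arrays, in a panel per family (MO, morpholino; black lines, medians). The snrp medians are -0.24 and 0.24 in controls, 0.17 and 0.53 in Bdh2 morphants and -0.07 with ectopic Bdh2, while the hnrnp medians are 0.05, -0.05, -0.04, -0.22 and 0.31 in the same order.

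The snRNP proteins were the family with the clearest common direction. All 10 tested probe sets had a higher mean in Bdh2 morphants than in controls, against 49.3% of all tested probe sets, with differences from 0.09 to 0.58. The median was 0.44 within number 1 and 0.38 within number 2, and 9 of the 10 were higher within both numbers, against 23.6% of all probe sets. All 10 also stayed higher after quantile normalisation and with each array centred. With an array left out, 8 of 10 were higher without control replicate 1 and 9 of 10 without Bdh2 morphant replicate 2. The same 10 genes differed between replicates too, with 9 of 10 higher in replicate 2 in both groups, against 29.5% of all probe sets, and arrays left out therefore moved the median: it was 0.15 without control replicate 1 and 0.72 without control replicate 2, 0.53 without Bdh2 morphant replicate 1 and 0.17 without Bdh2 morphant replicate 2.

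Among the Sm core proteins, snrpd1 had intensities of 5959 and 9719 in controls, of 12081 and 10746 in Bdh2 morphants, and of 7238 with ectopic Bdh2. Both Bdh2 morphants lay above both controls and above the array with ectopic Bdh2, with a difference from controls of 0.58 (SE 0.28, n = 2 and 2; limma adjusted p = 0.9995) that was 1.02 within number 1 and 0.14 within number 2. The related gene snrpd3l read 4311 and 5690 in controls, 6192 and 8155 in Bdh2 morphants and 5068 in the array with ectopic Bdh2. Its groups did not overlap either, and its difference of 0.52 (SE 0.27) was the same within both numbers, at 0.52 and 0.52. snrpe, another ring subunit, read 4255 and 6389 in controls, 5514 and 9159 in Bdh2 morphants and 4455 with ectopic Bdh2. The groups overlapped for snrpe, although each Bdh2 morphant lay above the control of its own number (0.37 and 0.52).

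Of the other ring subunits, snrpd3 read 1248 and 1791, 1724 and 2492, and 1420 with ectopic Bdh2, in the order of controls, Bdh2 morphants and ectopic Bdh2. snrpb read 4578 and 7395, 7061 and 8032, and 5307. snrpf, measured by a probe set of a type that can match several transcripts of a gene, read 5299 and 9478, 7781 and 12342, and 8921. In these 3 genes replicate 1 of the Bdh2 morphants lay below replicate 2 of the controls, so the groups overlapped, and the differences of 0.47, 0.37 and 0.47 appear within each number (0.46 and 0.47 for snrpd3, 0.62 and 0.12 for snrpb, 0.55 and 0.38 for snrpf). snrpg, the last subunit measured, read 1968 and 2508, 1718 and 3270, and 1943. It is the single snrp gene with opposite signs within the numbers, at -0.19 and 0.38.

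The particle-specific proteins followed the ring. snrpb2, a U2 protein that binds the small nuclear RNA, read 1085 and 1181 in controls, 1464 and 1539 in Bdh2 morphants and 1025 with ectopic Bdh2, with the smallest replicate differences of the family (0.12 in controls and 0.07 in Bdh2 morphants). Its Bdh2 morphants lay above both controls, by 0.40 (SE 0.30), and within numbers by 0.43 and 0.38. The U1 proteins gave smaller differences, 0.20 (SE 0.32) for snrpa and 0.21 (SE 0.27) for snrpc, with overlapping groups. snrpa read 1854 and 2563, 2182 and 2895, and 2177, and without control replicate 1 its difference was -0.03.

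**Figure D2:**
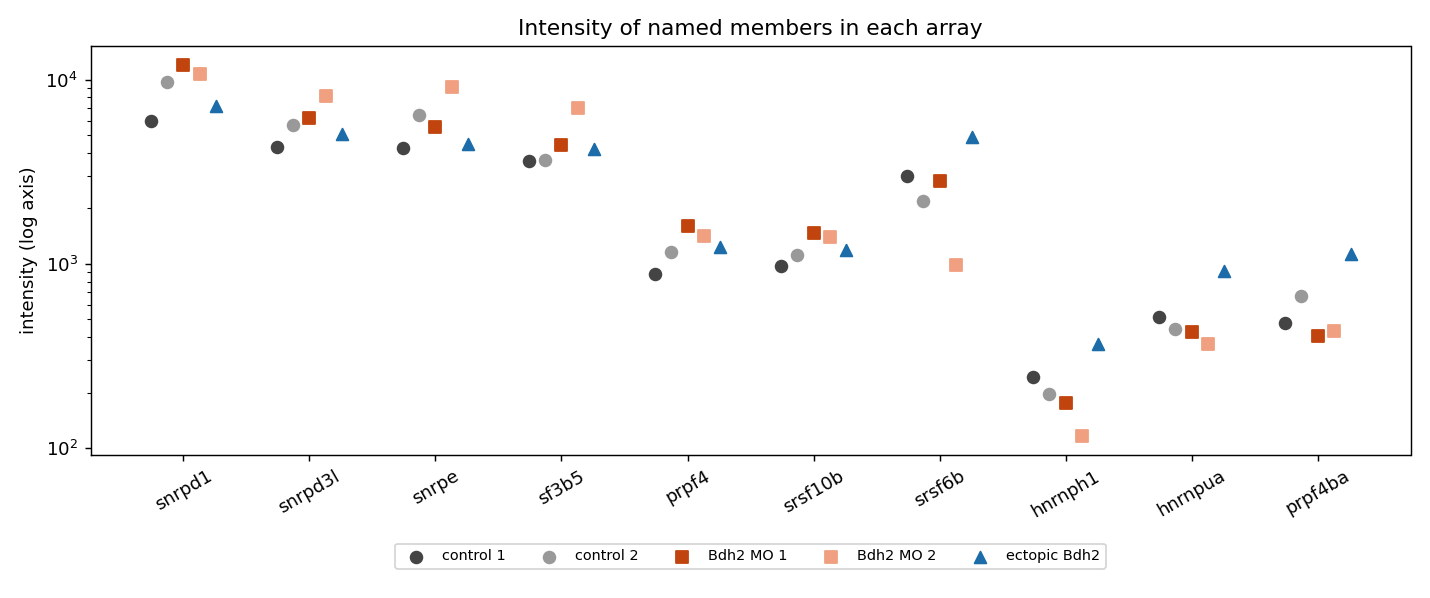
Intensity on a log axis of 10 member genes in each of the 5 arrays (MO, morpholino). In snrpd1, snrpd3l, sf3b5, prpf4 and srsf10b both Bdh2 morphant arrays lie above both controls, and in srsf6b, hnrnph1, hnrnpua and prpf4ba the array with ectopic Bdh2 is the highest of the 5.

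The SF3 complex did not share a direction, with 5 of 11 probe sets higher and 6 lower in Bdh2 morphants. sf3b5, a small subunit of SF3b, had the highest difference of any member. It read 3603 and 3653 in controls, 4435 and 6996 in Bdh2 morphants and 4224 with ectopic Bdh2, so the groups did not overlap while the Bdh2 morphant arrays differed from each other far more than the controls did. The difference was 0.62 (SE 0.30; adjusted p = 0.9995), or 0.30 and 0.93 within numbers. sf3b6, a subunit that lies at the branch-point adenosine, read 1755 and 2100, 1729 and 3539, and 1441 with ectopic Bdh2. Only Bdh2 morphant replicate 2 of those 5 arrays stood apart, and the differences within numbers were -0.02 and 0.75.

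The remaining SF3 subunits differed in both directions. sf3a3 read 774 and 810 in controls, 608 and 679 in Bdh2 morphants and 1163 with ectopic Bdh2. Both Bdh2 morphants lay below both controls, by -0.30 (SE 0.31), with -0.34 and -0.25 within numbers. sf3b1, the largest SF3b subunit, which contacts the branch point, had 2 probe sets at -0.19 and -0.22, and sf3b2 and sf3b3 were at 0.01 and -0.04. sf3a1 was at 0.33 (SE 0.29), with both Bdh2 morphants (1685 and 1742) above both controls (1314 and 1400).

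Among the PRPF proteins 7 of 11 probe sets were higher and 4 lower. prpf4, a U4/U6 particle protein, read 881 and 1157 in controls, 1603 and 1416 in Bdh2 morphants and 1238 with ectopic Bdh2. The groups did not overlap, and the difference was 0.57 (SE 0.32; adjusted p = 0.9995), with 0.85 and 0.29 within numbers. Both Bdh2 morphants also lay above both controls for prpf19, the ubiquitin ligase of its own spliceosomal complex (3543 and 3528 against 4865 and 4086; 0.33, SE 0.25), and for prpf39, which in yeast belongs to the U1 particle (1051 and 1293 against 1711 and 1365; 0.39, SE 0.32).

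Mutations in 5 of these genes, prpf3, prpf4, prpf6, prpf8 and prpf31, cause inherited retinal degeneration in humans. Apart from prpf4 they had small differences. prpf8, the scaffold at the centre of the spliceosome, was at 0.07 (SE 0.29; 2625 and 2812 in controls, 3366 and 2401 in Bdh2 morphants). prpf31, a U4/U6 protein, was at 0.01 (SE 0.38; 505 and 753, 507 and 766), and its replicate 2 values lay above its replicate 1 values in both groups. prpf6, which bridges U5 and U4/U6, was at 0.23 (SE 0.32; 1186 and 1310, 1739 and 1232) and prpf3 at -0.02 (SE 0.35; 280 and 388, 308 and 345). The groups overlapped for these 4 genes, and for each of them leaving out an array turned the sign.

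prpf4ba, one of 2 zebrafish genes for the kinase PRPF4B, went the other way. It read 475 and 666 in controls, 406 and 433 in Bdh2 morphants and 1126 with ectopic Bdh2. Both Bdh2 morphants lay below both controls, by -0.41 (SE 0.34), and the array with ectopic Bdh2 lay above all 4 others. Its paralog prpf4bb read 512 and 388, 575 and 368, and 598, with a difference of 0.05 (SE 0.37).

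SR proteins had 6 of 16 probe sets higher and 10 lower in Bdh2 morphants. srsf10b was the highest at 0.46 (SE 0.30; 968 and 1119 in controls, 1465 and 1402 in Bdh2 morphants, 1192 with ectopic Bdh2) among genes judged by their brightest probe set, and its groups did not overlap. In 0 of 16 probe sets did both Bdh2 morphants lie below both controls, against 14.1% of all probe sets. srsf6b had the lowest difference of any member at -0.61 (SE 0.50), from 2987 and 2192 in controls, 2828 and 981 in Bdh2 morphants and 4879 with ectopic Bdh2. That difference lies in Bdh2 morphant replicate 2, since within numbers it was -0.08 and -1.15, and it was 0.14 without that array.

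srsf1b, which codes for a zebrafish form of the splicing factor SRSF1, split by replicate number rather than by group. Its brighter probe set read 810 and 336 in controls, 871 and 180 in Bdh2 morphants and 1127 with ectopic Bdh2, and its other probe set read 658 and 297, 868 and 142, and 1153. Both replicate 1 arrays lay above both replicate 2 arrays in each probe set, and the array with ectopic Bdh2 was above them all. The differences between groups were -0.37 (SE 0.74) and -0.30 (SE 0.80), with 0.10 and -0.85 within numbers for the first and 0.39 and -0.98 for the second.

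The hnRNP family had 20 of 26 probe sets lower and 6 higher in Bdh2 morphants, against 50.7% of all probe sets lower. Within both numbers 14 of 26 were lower, against 28.2%, and in 6 of 26 both Bdh2 morphants lay below both controls, against 14.1%. The count of lower values was smaller under some settings, with 10 of 26 higher when each array was centred and 12 of 26 higher without Bdh2 morphant replicate 2, while 5 of 26 were higher after quantile normalisation. The hnrnp median stayed below 0 in these 3 settings, at -0.01, -0.04 and -0.14. Centring also moved the median of all tested probe sets, from -0.01 to 0.10, and the centred hnrnp median stayed below that level. hnrnph1, which binds runs of G in RNA, was the lowest among genes whose groups did not overlap. It read 242 and 196 in controls, 175 and 116 in Bdh2 morphants and 366 with ectopic Bdh2, a difference of -0.56 (SE 0.37; adjusted p = 0.9995), with -0.44 and -0.68 within numbers. hnrnpua, one of 2 genes for hnRNP U, a nuclear scaffold protein, read 516 and 443, 426 and 365, and 912. Its Bdh2 morphants lay below both controls by -0.27 (SE 0.33), with -0.27 within each number.

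The brightest hnrnpa0a probe set read 5999 and 5269 in controls, 4882 and 4202 in Bdh2 morphants and 6322 with ectopic Bdh2 (-0.31, SE 0.25). hnrnpd, a protein that binds AU-rich elements, read 1306 and 1194, 1002 and 1152, and 1276 in its brightest probe set (-0.21, SE 0.31). hnrnpabb read 11332 and 11511, 9803 and 10338, and 10159 (-0.18, SE 0.20). In all 3 of these probe sets both Bdh2 morphants were below both controls. The same held for the brightest hnrnpa0b probe set (-0.11, SE 0.19), whose intensities are given with its other probe sets. A dimmer hnrnpd probe set read 290 and 142, 155 and 120, and 201 (-0.53, SE 0.43), with overlapping groups. The opposite order, both Bdh2 morphants above, was seen for hnrnpaba (8842 and 8430 against 9605 and 9411; 0.14, SE 0.21), for hnrnpa0l (14013 and 15200 against 15220 and 16264; 0.11, SE 0.19) and for 1 probe set of hnrnpa0b. The remaining hnRNP genes had overlapping groups; hnrnpc, hnrnpk and hnrnpm, for example, were at 0.01, 0.03 and -0.01.

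**Figure D3:**
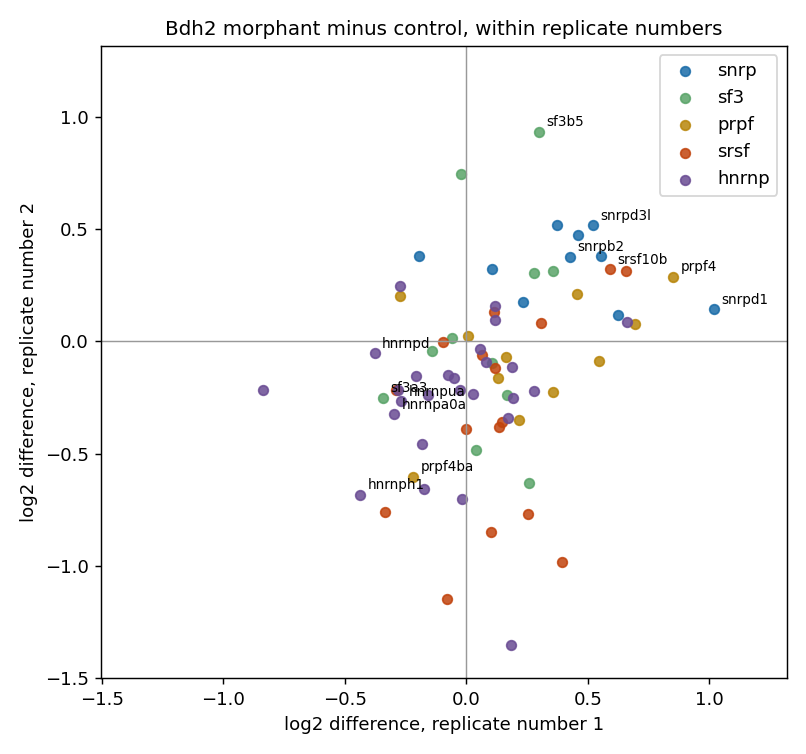
Each point is a tested member probe set, with the log2 difference between Bdh2 morphant and control within replicate number 1 on the horizontal axis and within number 2 on the vertical axis, coloured by family (MO, morpholino). Of the 10 snrp probe sets, 9 lie at the upper right, and 14 of 26 hnrnp probe sets lie in the lower left.

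With ectopic Bdh2, 14 of 16 SR probe sets (median 0.36) and 22 of 26 hnRNP probe sets (median 0.46) had a higher value than the mean of the Bdh2 morphants, against 57.6% of all probe sets, and all 10 snRNP protein probe sets had a lower one. Among the exceptions were srsf10b (-0.26), srsf7a (-0.20) and hnrnpa0l (-0.17). No member passed the threshold (0 of 74, against 0.527% of all probe sets; limma, smallest adjusted p = 0.227). An unadjusted p under 0.05 was found for 5 of 74 (6.76%, against 12.3%), all 5 of them higher with ectopic Bdh2, as were 6.76% of all probe sets. The member median was 0.26, beside 0.12 for all tested probe sets. This array lay above both Bdh2 morphants for 42 members (56.8%, against 42.7%) and below both for 16 (21.6%, against 29.9%). It is 1 array, which the model assumes to vary like the replicated groups, and the differences below share the Bdh2 morphant arrays with those above, so opposite signs in the 2 comparisons are not independent. With each array centred the median of all tested probe sets moved to -0.08 and the member median to 0.06, and with quantile normalisation these were 0.01 and 0.33. Centring also lowered the srsf median to 0.16 and the hnrnp median to 0.26.

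All 10 tested snrp probe sets were lower with ectopic Bdh2 than the mean of the Bdh2 morphants, from -0.67 to -0.13 with a median of -0.50, against 42.4% of all probe sets lower. For 7 of 10 the array lay below both Bdh2 morphants, against 29.9%. The median was -0.28 against replicate 1, where 3 of 10 were higher, and -0.59 against replicate 2, where 0 of 10 were higher. Quantile normalisation left 8 of 10 lower with a median of -0.21, and with the replicate number as a block 6 of 10 were lower when the array was placed with number 1. The lowest were snrpe at -0.67 (SE 0.42; adjusted p = 0.557) and snrpd1 at -0.65 (SE 0.35; adjusted p = 0.501), followed by snrpb2 and snrpd3 at -0.54 each and snrpb at -0.50, whose intensities are given above. Among SF3 genes sf3b6 was the lowest at -0.77 (SE 0.49; adjusted p = 0.564), although against replicate 1 alone the difference was -0.26.

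Set against controls, the snrp family had no common direction with ectopic Bdh2: 3 probe sets were higher and 7 lower, with a median of -0.07, while 58.6% of all probe sets were higher and 41.4% lower. The sign followed the control it was set against, at 0.20 for replicate 1 and -0.28 for replicate 2, and the median was 0.07 after quantile normalisation. The other families lay above the controls, with medians of 0.29 for sf3, 0.29 for prpf, 0.31 for srsf and 0.31 for hnrnp, beside 0.12 for all tested probe sets. In that comparison 0 of 74 members passed (against 0.667%; smallest adjusted p = 0.520), and at an unadjusted p under 0.05 there was 1 member (against 7.02%). The array lay above both controls for 45 members (60.8%, against 44%) and below both for 6 (8.11%, against 28.9%). It was above all 4 other arrays for 35 members (47.3%, against 34.4%) and below all 4 for 4 (5.41%, against 21.9%).

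The largest member differences with ectopic Bdh2 were in hnRNP, SR and PRPF4B kinase genes. One hnrnpa0b probe set, not the brightest of the gene and so named after its values were seen, read 195 and 310 in controls, 224 and 112 in Bdh2 morphants and 811 with ectopic Bdh2. This array lay above the other 4, by 2.24 (SE 0.54; adjusted p = 0.227) from Bdh2 morphants and by 1.66 (SE 0.54; adjusted p = 0.520) from controls. It passed against Bdh2 morphants without control replicate 1 (adjusted p = 0.0423), without control replicate 2 (adjusted p = 0.0384) and with a replicate block that places the array in number 2 (2.31, adjusted p = 0.0435), but not with all arrays and no block. The brightest hnrnpa0b probe set differed by 0.15 (SE 0.24), and the 4 probe sets of the gene are compared further on.

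srsf6b differed by 1.54 from Bdh2 morphants (SE 0.62; adjusted p = 0.386) and by 0.93 from controls. srsf1b differed by 1.46 (SE 0.91; adjusted p = 0.561) and 1.64 (SE 0.98; adjusted p = 0.539) in its probe sets, and by 1.08 and 1.35 from controls. Much of that distance is from replicate 2, because against Bdh2 morphant replicate 1 alone the difference was 0.78 for srsf6b and 0.37 for the brighter srsf1b probe set. Both genes were lower in replicate 2 in controls and in Bdh2 morphants, so placing the array in block 2 raised their differences by construction. The share of all probe sets that passed under that block is not given here. With the array in block 2, srsf6b (2.03, adjusted p = 0.0269) and both srsf1b probe sets (2.31 and 2.54, adjusted p = 0.0208 and 0.0261) passed against Bdh2 morphants, and the brighter srsf1b probe set passed against controls (1.94, adjusted p = 0.0498). With the array in block 1, the number in its label, 0 members passed.

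prpf4ba, hnrnph1 and hnrnpua gave distances that did not rest on 1 Bdh2 morphant array. prpf4ba differed by 1.39 from Bdh2 morphants (SE 0.42; adjusted p = 0.305) and stayed between 1.35 and 1.44 with either array left out. hnrnph1 differed by 1.27 (SE 0.45; adjusted p = 0.341) and hnrnpua by 1.18 (SE 0.40; adjusted p = 0.335), ranging from 1.00 to 1.53 and from 1.07 to 1.28. From controls the same genes differed by 0.98, 0.71 and 0.91. hnrnpub, the paralog of hnrnpua, read 2335 and 2037 in controls, 2067 and 1284 in Bdh2 morphants and 3006 with ectopic Bdh2, or 0.88 (SE 0.41) above Bdh2 morphants.

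Against controls the list of high values also held srsf2b (1006 and 1165 in controls, 1053 and 1115 in Bdh2 morphants, 1821 with ectopic Bdh2; 0.74, SE 0.37) and hnrnpk, which binds C-rich RNA (1705 and 1547, 2071 and 1324, 2659; 0.71, SE 0.41). In both genes the array with ectopic Bdh2 was the highest of the 5. Low values against controls were few and small. Only 5 genes, judged by their brightest probe set, lay below both controls: sf3b6 (-0.41), snrpg (-0.19), hnrnpabb (-0.17), snrpb2 (-0.14) and hnrnpa0l (-0.06), and those of hnrnpabb and hnrnpa0l turned to 0.31 and 0.40 after quantile normalisation.

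The zebrafish genome holds a pair of genes for many single mammalian splicing factors. Here 9 pairs with symbols equal up to a last a or b were compared through their brightest probe sets. The pair prpf38a and prpf38b is not of that kind, since mammals also hold both genes. In Bdh2 morphants against controls the pairs prpf38a and prpf38b (-0.04 and -0.07) and srsf5a and srsf5b (-0.20 and -0.25) lay within 0.1 of each other, while prpf4ba and prpf4bb (-0.41 and 0.05), srsf1a and srsf1b (0.00 and -0.37), srsf6a and srsf6b (-0.26 and -0.61) and hnrnpaba and hnrnpabb (0.14 and -0.18) lay from 0.32 to 0.46 apart, beside standard errors of 0.20 to 0.74 for the single genes. With ectopic Bdh2 against Bdh2 morphants the gap was -1.21 for srsf6a minus srsf6b, -1.08 for srsf1a minus srsf1b, 1.03 for prpf4ba minus prpf4bb and -0.69 for srsf2a minus srsf2b. By the brightest probe sets, 1 gene of each of these 4 pairs thus carried most of the distance, and the gap itself was not tested. The other srsf6a probe sets were at 0.73 and 0.21. Against Bdh2 morphant replicate 1 alone, srsf1a was at 0.17 and srsf1b at 0.37, so most of that gap lies against replicate 2. Sequence shared between paralogs could let a probe set read both genes, and this was not tested.

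Probe sets of 1 gene did not always give 1 answer. Of 8 member genes with more than 1 tested probe set, 4 had the same sign in Bdh2 morphants against controls in every probe set and 4 did not (hnrnpa0a, hnrnpa0b, sf3a2 and srsf6a). For hnrnpa0b the brightest probe set read 12919 and 12459 in controls, 12252 and 11232 in Bdh2 morphants and 13056 with ectopic Bdh2, a narrow range. A second read 2594 and 6768, 2281 and 4927, and 5844, with both replicate 1 arrays of controls and Bdh2 morphants below the other 3 arrays. Another read 220 and 215, 357 and 230, and 214, and the last is the one with 811 under ectopic Bdh2. The differences from controls were -0.11, -0.32, 0.37 and -0.58, so no single value stands for hnrnpa0b.

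For srsf6a the probe sets gave -0.26, -0.55 and 0.48. The first read 2825 and 3757 in controls, 3371 and 2197 in Bdh2 morphants and 3421 with ectopic Bdh2. The second read 736 and 2008, 579 and 1178, and 1381, with the same 2 arrays the lowest. The dimmest read 113 and 128, 187 and 163, and 205, and is the only one of the 3 whose groups did not overlap. The hnrnpa0a probe sets gave -0.31, 0.04 and -0.12, and those of sf3a2 gave 0.29 and -0.02. The probe sets may lie on different parts of a transcript, and where they lie was not examined here.

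**Figure D4:**
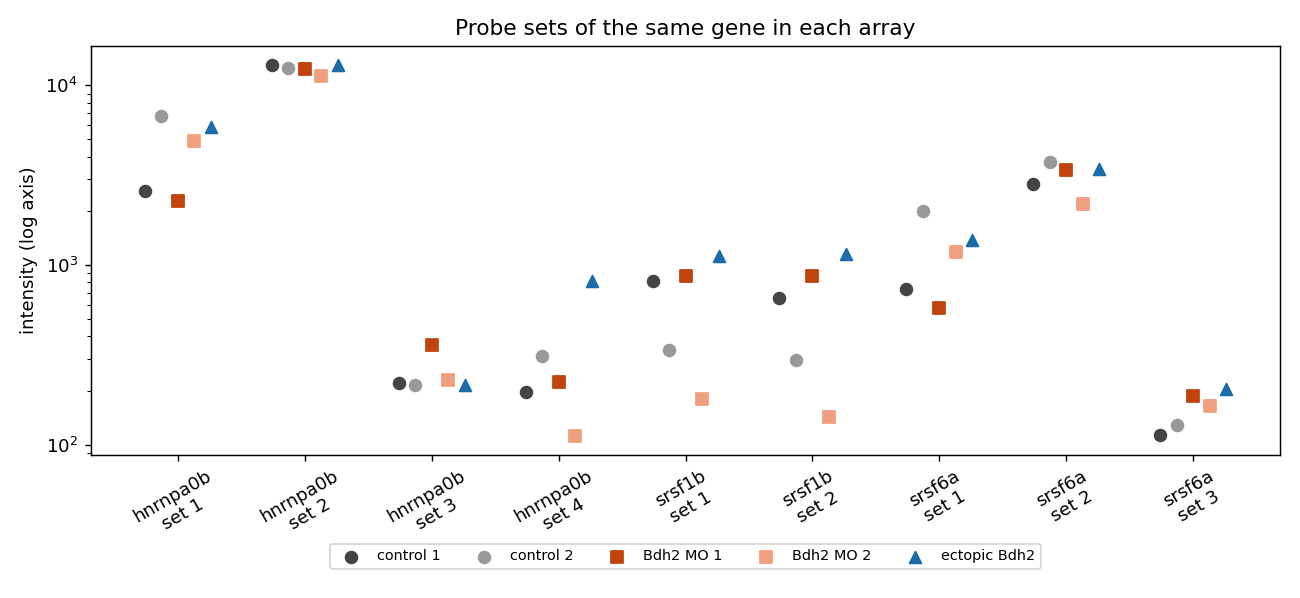
Intensity on a log axis of the separate probe sets of hnrnpa0b, srsf1b and srsf6a in the 5 arrays (MO, morpholino). Both srsf1b probe sets show the same order of arrays, while those of hnrnpa0b and srsf6a do not.

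Many members also separated by replicate number. Of 74 members, 31 were higher in replicate 2 in both groups (41.9%, against 29.5% of all probe sets) and 26 were lower in both (35.1%, against 38%). Across the 74 probe sets, which are not independent, the replicate difference in controls and that in Bdh2 morphants correlated at r = 0.737, beside 0.538 over all tested probe sets, and both are differences within a group. Families went in opposite directions: the snrp median of replicate 2 minus replicate 1 was 0.49 in controls and 0.40 in Bdh2 morphants, while 17 of 26 hnrnp probe sets were lower in replicate 2 in both groups, with medians of -0.10 and -0.28. Among genes judged by their brightest probe set, and with both groups of the same sign, the low end held srsf1b (-1.23 in controls and -2.18 in Bdh2 morphants), srsf6b (-0.44 and -1.51), hnrnpr (-0.25 and -0.93; 1183 and 995, 1167 and 604) and sf3b4 (-0.78 and -0.69; 926 and 532, 839 and 515). The high end held sf3a2 (0.81 and 0.84), snrpf (0.84 and 0.66), srsf5a (0.89 and 0.49; 2824 and 5231, 2822 and 3982) and snrpe (0.58 and 0.73). Less bright probe sets reached further, with 1.43 and 1.00 for 1 of srsf6a, 1.38 and 1.11 for 1 of hnrnpa0b and -0.76 and -1.07 for 1 of hnrnpa0a. Replicates of 1 group have no order, and what the number marks was not tested.

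**Figure D5:**
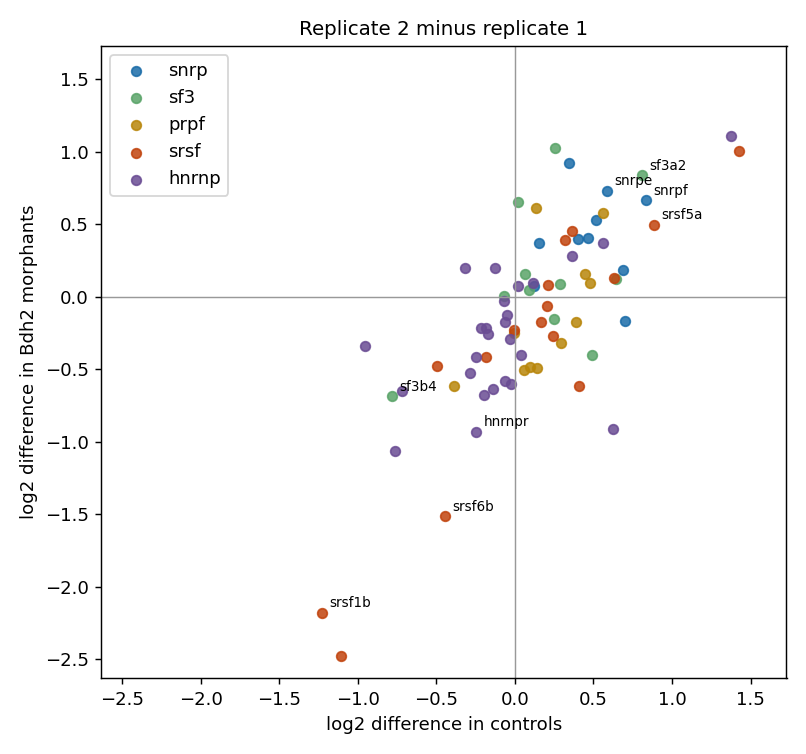
Each point is a tested member probe set, with the replicate 2 minus replicate 1 log2 difference of the controls on the horizontal axis and that of the Bdh2 morphants on the vertical axis, coloured by family (MO, morpholino). Points run along the rising diagonal, with both srsf1b probe sets at the lower left end.

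Other genes of splicing were read from 3 lists that hold no member, with 1 probe set per gene. Over all tested probe sets, 49.3% were higher in Bdh2 morphants than in controls. Of 65 tested genes for other spliceosome components, 39 were higher and 26 lower in Bdh2 morphants (median 0.04), and 0 passed. The highest was snrnp35, a protein of the minor spliceosome (41 and 115 in controls, 112 and 157 in Bdh2 morphants; 0.79, SE 0.48), and the lowest was tcerg1b (-0.37, SE 0.33). Of 26 tested genes for the exon junction complex, mRNA decay and the assembly of snRNPs, 20 were higher and 6 lower (median 0.16), and 0 passed. The highest of them serve snRNP assembly: coil, the marker protein of Cajal bodies, read 154 and 158 in controls, 304 and 237 in Bdh2 morphants and 242 with ectopic Bdh2 (0.73, SE 0.34), and prmt5, which methylates Sm proteins, read 1023 and 777, 1652 and 1117, and 960 (0.60, SE 0.35). These 2 genes were picked as the highest of the list. In both the Bdh2 morphants lay above both controls, as in 6 of the 26 genes, against 10.3% of all probe sets. Among other genes of snRNP assembly and export, gemin4 and gemin8 were higher (0.56 and 0.42), while phax and gemin7 were lower (-0.13 and -0.06). With ectopic Bdh2 against controls, coil was at 0.59 and prmt5 at 0.10.

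Of 57 tested splicing regulators and other RNA-binding proteins, 24 were higher and 33 lower in Bdh2 morphants (median -0.09), and 0 passed. The lowest were elavl4, a neuronal RNA-binding protein (682 and 693 in controls, 459 and 144 in Bdh2 morphants, 961 with ectopic Bdh2; -1.35, SE 0.53), and celf4 (255 and 325, 236 and 58.9, and 255; -1.15, SE 0.58). Both are known for expression in neurons, and elavl4 also stands in the neuron list below. With ectopic Bdh2 against Bdh2 morphants 48 of these 57 were higher (median 0.50), as were 44 of 65 spliceosome components (median 0.21) and 12 of 26 assembly and decay genes (median -0.05), beside 57.6% of all probe sets.

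Cell type markers also differed between these arrays. Counts below are of tested genes, while sums run over all list genes on the array, tested or not. These were 21 neuron, 17 neural progenitor, 32 proliferating, 19 skeletal muscle and 14 erythroid genes. Of 20 tested neuron genes, 20 were lower in Bdh2 morphants. The summed intensity of the neuron list was 32314 and 27955 in controls, 26396 and 15802 in Bdh2 morphants and 41409 with ectopic Bdh2. It was thus lowest in Bdh2 morphant replicate 2 and highest with ectopic Bdh2. That array was also above all 4 others for 8 of 16 SR, 16 of 26 hnRNP, 7 of 11 SF3 and 4 of 11 PRPF probe sets. For snRNP proteins it was 0 of 10, and for all probe sets 34.4%. Of 16 neural progenitor genes, 9 were lower in Bdh2 morphants and 16 were higher with ectopic Bdh2 than in Bdh2 morphants (sums 31897 and 24923, 27591 and 24668, and 48336). Of 31 genes of proliferating cells, 25 were higher in Bdh2 morphants, against 49.3% of all probe sets (sums 54523 and 63693, 68900 and 70040, and 66581). All 10 snrp probe sets were higher too. Within number 1 the medians were 0.385 for the proliferating list and 0.44 for snrp, and within number 2 they were 0.03 and 0.38. With ectopic Bdh2 against Bdh2 morphants 17 of 31 proliferating genes were higher (median 0.05), beside 0 of 10 snrp probe sets (median -0.50). For skeletal muscle genes the sums were 252993 and 229356, 209884 and 183297, and 32953 with ectopic Bdh2. In that array 16 of 17 tested muscle genes were lower than in Bdh2 morphants (median -2.42), against 42.4% of all probe sets lower. For erythroid genes the sums were 119408 and 58953 in controls, 102849 and 62038 in Bdh2 morphants and 59707 with ectopic Bdh2. On this sum the array with ectopic Bdh2, labelled replicate 1, lies with the replicate 2 arrays. Gene by gene it was above Bdh2 morphant replicate 1 for 1 of 13 tested genes (median difference -0.78). It was above Bdh2 morphant replicate 2 for 11 of 13 (median 1.25). Against control replicates 1 and 2 it was above for 0 and 8 of 13. The lowest marker values were 4.05 for notch1b and 16.4 for mcm6, and none was at 0. The ratio of the 3' to the 5' probe set of the acta1 control, which is higher in degraded RNA, was 4.28 and 2.60 in controls, 11.8 and 3.49 in Bdh2 morphants and 6.63 with ectopic Bdh2. The skeletal muscle list holds acta1a, and muscle values were lower with ectopic Bdh2, so the acta1 ratio of that array may not be comparable. This was not tested. For the gapdh control the ratio was 2.68 and 1.504, 2.82 and 1.71, and 1.99. It was also highest in Bdh2 morphant replicate 1, but there it lay close to control replicate 1. Both ratios were higher in replicate 1 than in replicate 2, in controls and in Bdh2 morphants. The part of these cell types and of RNA quality in the member values was not tested.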

How the data were processed

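Biotin-labelled total RNA of each of 5 samples was read on its own Affymetrix zebrafish array, per the labels' protocols. The authors deposited linear intensities per probe set, made with Affymetrix Expression Console per the submitters' processing notes. Version, summarisation and scaling were not given in the sources used here. Precision is limited by the number of arrays.

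Here each intensity was converted to log2(intensity + 16) without further normalisation. Of 15617 probe sets, 115 Affymetrix controls were set aside, and those with a mean above the 40th percentile were tested (9301). Symbols came from the platform annotation: 10802 probe sets carry 1 symbol, 135 several and 4680 none. One probe set annotated to both zp3e and prpf8 was not counted as a member. All 5 arrays entered 1 limma model with a mean per group (limma 3.58.1, R 4.3.3, intensity-dependent prior; 2 residual degrees of freedom, 4.89 from the prior). P-values are two-sided, with Benjamini-Hochberg adjustment over all tested probe sets and a threshold of 0.05. The pipeline was tested on simulated arrays without an effect of replicate number, with changes in Bdh2 morphants larger than any member difference there. That test does not cover smaller differences or the single array with ectopic Bdh2.

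Members and lists were chosen with earlier results of these data known. Genes named in the text are bdh2, up to 6 highest and 6 lowest members per comparison by brightest probe set where arrays do not overlap, the 5 genes of retinal degeneration, paralog pairs, genes with probe sets of opposite sign, and the 4 highest and lowest between replicate numbers; others are given as examples of a family. The pair rule also took snrpa and snrpb, which are not a duplicate pair and were left out of the pairs. The pair prpf38a and prpf38b, both also found in mammals, was kept. From the other lists, the highest and lowest were taken.

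Same-numbered arrays deviated together (r = 0.538 over all tested probe sets, 0.737 over members), but there are only 2 pairs and the labels name no shared batch, so the number is treated as a block only as an alternative. Other alternatives were the filter, the added constant, the scaling, the prior, the threshold, the choice of probe sets and each array left out.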

Additional observations from a re-analysis of the deposited data

Results flagged for a closer look

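One member probe set outside the tests stood out in a single array. A dim probe set for hnrnpub, whose mean lay below the filter on dim values, read 49.8 and 13.5 in controls, 63.3 and 38.1 in Bdh2 morphants and 111.9 with ectopic Bdh2, a signal above the level of both controls. No comparison above uses it. The 2 tested hnrnpub probe sets were 0.88 and 0.58 higher with ectopic Bdh2 than in Bdh2 morphants. No group holds enough arrays for a check of single outlying samples.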

How the results depend on the processing

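The count of members past the threshold and the member median were recomputed for each comparison under every alternative. Of these values 59 stayed close to the values above and 7 moved, and with an array left out 23 stayed and 3 moved. The member median of Bdh2 morphants minus controls, close to 0, turned sign among them: it was 0.0843 with each array centred and ran from -0.0523 to 0.0724 with an array left out. The median of ectopic Bdh2 minus Bdh2 morphants was 0.33 after quantile normalisation, 0.0572 with each array centred and 0.19 with the array in block 2, and ran from 0.16 to 0.26 with an array left out. That of ectopic Bdh2 minus controls was 0.33 after quantile normalisation and 0.14 with each array centred. With the replicate block and the array in block 2, 4 member probe sets passed against Bdh2 morphants and 1 against controls; in block 1 the counts were 0 and 0, and in Bdh2 morphants minus controls it was 0 under either block, so the block changed no other call. With an array left out the count against Bdh2 morphants ran from 0 to 1. The share of all probe sets that passed under block 2 is not given here. The labels do not pair the samples by number. The cause of these changes was not tested.

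Other signs turned too. With each array centred, the sf3 median of ectopic Bdh2 minus Bdh2 morphants was -0.00903, against 0.19 without centring. The median of all tested probe sets moved too, from 0.12 to -0.08. Among Bdh2 morphants minus controls, centring gave 0.0880 for prpf3, 0.0684 for prpf38a, 0.0358 for prpf38b, 0.0121 for sf3b4 and 0.0805 for 1 probe set of sf3a2. There the median of all tested probe sets moved from -0.01 to 0.10. After quantile normalisation prpf3 was 0.0698, prpf38a 0.0692, srsf1a -0.0232 and that sf3a2 probe set 0.0837, and against controls with ectopic Bdh2 hnrnpabb was 0.31 and hnrnpa0l 0.40. With the replicate block and the array in block 1, snrpg was 0.13 against controls. With an array left out, some of the larger differences turned as well, among them those of srsf6b, srsf1b, hnrnpr and 1 srsf6a probe set. Leaving out an array sets unlike numbers against each other. Bdh2 morphants minus controls then ran from -0.24 to 0.21 for prpf3, -0.0164 to 0.47 for prpf6, -0.18 to 0.31 for prpf8, -0.27 to 0.30 for prpf31, -0.34 to 0.27 for prpf38a, -0.32 to 0.19 for prpf38b, -0.26 to 0.35 for prpf4bb and -0.0282 to 0.44 for snrpa. For SR genes it ran from -0.21 to 0.21 for srsf1a, -1.46 to 0.72 for srsf1b, -0.10 to 0.10 for srsf2b, -0.64 to 0.25 for srsf5a, -1.37 to 0.14 for srsf6b, and -0.57 to 0.0489 and -1.26 to 0.17 for srsf6a probe sets. It ran from -0.40 to 0.16 and -0.50 to 0.57 for hnrnpa0a probe sets, -1.01 to 0.37 for an hnrnpa0b probe set, -0.83 to 0.10 for hnrnpr, -0.13 to 0.71 and -0.0568 to 0.0108 for sf3a2 and -0.48 to 0.30 for sf3b4. Dim probe sets limit the rest: 6 members lay under the filter, and a single array with ectopic Bdh2 carries no spread of its own.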
